A study of Mus musculus with 12 samples.

Results

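The interaction of genotype and surgery asks whether the left ventricle of T497A mice answered pressure overload differently from that of wild-type mice. For each gene it is the response to surgery in T497A, as T497A TAC minus T497A sham, less the same response in wild type (WT), as WT TAC minus WT sham, on the log2 scale. A negative value means that the T497A response was the lower of the 2 and a positive value that it was the higher. All 12 libraries of the series enter it, 3 in each of the 4 groups, and 17699 of the 55401 genes in the counts table passed the filter on low counts and were tested. Messenger RNA had been sequenced from left ventricle of WT mice and of mice carrying the T497A form of Prkca, in which the threonine at that position of protein kinase C alpha is replaced by alanine. At 10 weeks of age the mice had undergone transverse aortic constriction (TAC), with a 27-gauge needle setting the width of the ligated aorta, or a sham operation, and tissue was taken at 11 weeks, 1 week later. The labels do not say whether 1 or both alleles were changed, what strain or sex the mice were, or whether 3 libraries of a group stand for 3 animals. The p-values therefore measure only the spread between these libraries. The series bears in its title on base editing that takes away a phosphorylation site of this kinase, in heart failure.

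Protein kinase C alpha is a serine and threonine kinase that calcium and diacylglycerol activate, downstream of receptors for noradrenaline, angiotensin and endothelin that couple to Gq. Before it can be activated it must be phosphorylated in its activation loop and then in its tail, and the threonine named in the genotype is the activation-loop site. In the heart it acts on calcium handling and contractility, and pressure overload is known to bring back fetal genes, to activate fibroblasts that lay down matrix, and to lower the genes of fat oxidation.

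Levels are given as CPM, a gene's counts relative to its library's total after scaling for composition with TMM factors. A gene is called where its adjusted p is under 0.05 in edgeR's quasi-likelihood test with Benjamini-Hochberg adjustment. Prkca itself (ENSMUSG00000050965.14, minus strand, chr11:107933387-108343928 on GRCm38) was detected in every library, and since a change of 1 codon leaves the transcript countable, its level does not check the genotype labels. It stood at 47.4, 43.5 and 42.2 CPM in WT sham and 49.2, 50.7 and 51.0 in WT TAC. In T497A it stood at 35.7, 34.7 and 31.1 after sham and 50.3, 44.7 and 43.7 after TAC. The T497A sham libraries were the lowest and did not overlap the others (-0.39 ± 0.07 against WT sham, adjusted p = 0.0056). The interaction was 0.27 ± 0.10 (log2, standard error) and was not called (adjusted p = 0.061). It was called without T497A sham 1 (0.31, adjusted p = 0.046) or without T497A TAC 3 (0.31, adjusted p = 0.046), with the replicate number as a block (0.27, adjusted p = 0.0497) and by limma-voom (0.28, adjusted p = 0.019), and it was -0.03 when libraries were not scaled for composition.

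Several facts about the libraries touch every value that follows. Xist, which acts in X inactivation, gave 160 to 215 CPM in the 3 T497A sham libraries and 0.315 to 0.751 in the other 9. Ddx3y, on the Y chromosome, gave 0.0999 to 0.396 CPM in T497A sham against 73.6 to 108 elsewhere. The interaction therefore also contrasts libraries with and without Y transcripts, and the difference between genotypes after TAC is given beside it from a fit that leaves out the T497A sham libraries. A second split, found by a search made after the values were seen, crossed the design: among the 12738 autosomal genes averaging 1 CPM or more, 7 were at least 4-fold higher in all 6 libraries of WT TAC and T497A sham than in any of WT sham or T497A TAC, and 0 the other way. For comparison, 2 genes separated both TAC groups from both sham groups in that way, and 0 separated the genotypes. Apart from Gpr179 and Eno1b, the 7 are annotated as processed pseudogenes, namely Gm5611, Gm15772, Rps3a3, Rpl34-ps1 and Rps3a2. Gm15772 stood at 31.7 to 66.8 CPM in WT TAC and T497A sham, at 0.355 to 0.614 in WT sham, and at 0.167, 6.05 and 0.200 in the T497A TAC libraries. H2-Ea, a class II histocompatibility gene that some inbred mouse strains do not express, stood at 7.67 and 26.8 CPM in WT TAC 1 and 2 and at 21.2 in T497A sham 1. In the other 9 libraries it stood at 0 to 0.0341 CPM. A difference in genetic background, or an exchange of labels, that follows this split cannot be told apart from the interaction. Results were also computed without these 3 libraries, from the 9 low in H2-Ea (under 1 CPM). There WT TAC 3 alone stands for its group and is assumed to vary like the others. The split remains in that fit, with Gm15772 at 58.6 CPM in WT TAC 3 and at 63.7 and 66.8 in T497A sham 2 and 3. It therefore cannot separate background or labels from the interaction.

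Total counts ran from 58932759 to 72594085 per library. Scaling factors were 1.13 to 1.21 in WT TAC and 0.910 to 0.988 in the other groups, and mitochondrial transcripts took 9.67 to 14.7% of counts in WT TAC against 15.97 to 20.99% elsewhere. The cell type label reads cardiomyocyte, but the tissue is left ventricle and markers of other cells were present. The summed CPM of 5 cardiomyocyte markers (Myh6, Tnnt2, Actn2, Tnni3 and Ryr2) was 46501 to 52047 in WT sham and 22902 to 26616 in WT TAC. It was 51136 to 52879 in T497A sham and 40109 to 42847 in T497A TAC. All 5 had a positive interaction, and Myh6 made up most of the sum in WT sham. For 4 fibroblast markers (Pdgfra, Tcf21, Dpt and Col1a1) the sums were 293 to 340, 1858 to 4431, 272 to 356 and 393 to 618 CPM in the same order, and 3 had a negative interaction. Col1a1, a collagen gene, made up most of that sum in WT TAC. For 4 macrophage markers they were 99.4 to 116, 195 to 337, 106 to 122 and 142 to 157 CPM, with 2 negative. Fewer cells of a type and less RNA per cell cannot be told apart in such tissue. Atrial markers (Myl7, Myl4 and Sln) summed to 147 to 654 CPM in T497A sham and to 16.3 to 173 elsewhere, and their part in the values of Nppa and Myh7 below was not tested. The marker pairs of T cells (Cd3e, Cd3d), B cells and neutrophils summed to at most 2.00 CPM in every library.

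The response to surgery differed between the genotypes in 5218 genes, 29.5% of those tested, while 49.9% responded to TAC in WT and 24.4% in T497A. The interaction was positive in 2700 (15.3%) and negative in 2518 (14.2%), and 7068 genes had an unadjusted p under 0.05. It reached 2-fold in 687 positive (3.88%) and 1122 negative genes (6.34%), and 4-fold in 216 (1.22%) and 475 (2.68%). The largest class in each direction was a change in WT that was not called in T497A. Among the 2700 positive genes, 1670 (61.9%) fell after TAC in WT and were not called in T497A, 408 (15.1%) fell in both, 220 (8.15%) fell in WT and rose in T497A, and 263 (9.74%) rose in T497A with no call in WT. Among the 2518 negative genes, 1479 (58.7%) rose in WT and were not called in T497A, 354 (14.1%) rose in both, 224 (8.90%) rose in WT and fell in T497A, and 316 (12.5%) fell in T497A with no call in WT. The median response of the positive genes was -0.61 in WT and 0.00 in T497A, and that of the negative genes was 0.86 and -0.07. Seen by surgery, 2056 of the positive genes (76.1%) differed between genotypes after TAC and not after sham, and 1761 of the negative genes (69.9%) did so. Counts of called list members below stand beside the 15.3% positive and 14.2% negative of all genes. Over all genes tested the median interaction was -0.01. Without scaling for composition it moved to -0.31, and the calls became 1175 positive and 5694 negative, so directions below are relative to that median. With the 9 libraries low in H2-Ea, 3276 genes were called, 1755 positive and 1521 negative, and 3065 of the 5218 were among them, all with the same sign.

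**Figure D1:**
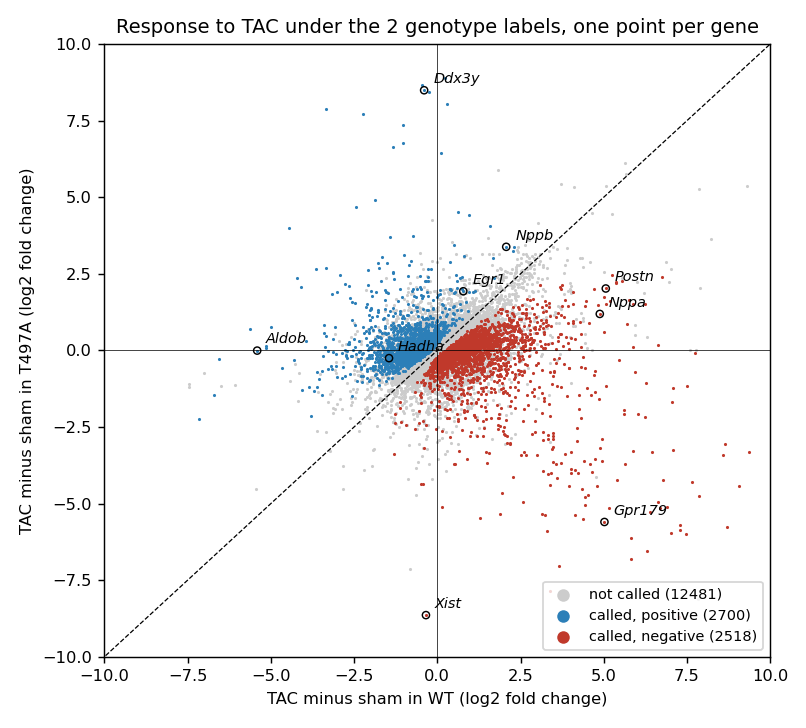
Response to TAC in WT (horizontal axis) and in T497A (vertical axis), each as log2 fold change of TAC over sham, with 1 point for each of the 17699 genes tested less 3 that lie beyond the axes. Genes called in the interaction are blue where positive (2700) and red where negative (2518). The dashed line marks equal responses. Genes that changed in WT and were not called in T497A (1670 blue and 1479 red) spread along the horizontal axis.

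The natriuretic peptides and the fetal genes that reappear under load did not move as one. Nppa, which encodes atrial natriuretic peptide, rose after TAC far less in T497A, whereas Nppb, which encodes the B-type peptide, and Ankrd1, a stretch-responsive cofactor of the Z-disc, rose from a lower sham level to nearly the level of WT TAC. The sequence around the start of these 3 genes is shown because they answer the same surgery with interactions of opposite sign. Each line gives the 250 bases before the start and 50 after it, 5′ to 3′ on the gene's strand, from RefSeq on GRCm38.p6, with capitals marking CATTCC on either strand (the M-CAT element, read as GGAATG on the other) and TATAAA.
Nppa (chr4:148000472-148000771, plus strand): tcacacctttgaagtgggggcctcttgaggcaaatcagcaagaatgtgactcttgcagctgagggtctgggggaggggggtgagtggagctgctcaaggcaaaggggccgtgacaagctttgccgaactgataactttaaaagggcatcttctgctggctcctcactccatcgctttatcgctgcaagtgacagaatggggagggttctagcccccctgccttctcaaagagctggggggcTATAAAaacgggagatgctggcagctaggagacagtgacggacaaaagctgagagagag
Nppb (chr4:147985650-147985949, plus strand): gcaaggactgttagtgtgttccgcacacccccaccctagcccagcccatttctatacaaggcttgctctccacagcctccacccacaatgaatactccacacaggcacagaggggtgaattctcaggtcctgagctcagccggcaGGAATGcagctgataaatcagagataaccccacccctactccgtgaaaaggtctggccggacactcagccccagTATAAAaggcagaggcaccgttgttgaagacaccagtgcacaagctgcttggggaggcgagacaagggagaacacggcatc
Ankrd1 (chr19:36119795-36120094, minus strand): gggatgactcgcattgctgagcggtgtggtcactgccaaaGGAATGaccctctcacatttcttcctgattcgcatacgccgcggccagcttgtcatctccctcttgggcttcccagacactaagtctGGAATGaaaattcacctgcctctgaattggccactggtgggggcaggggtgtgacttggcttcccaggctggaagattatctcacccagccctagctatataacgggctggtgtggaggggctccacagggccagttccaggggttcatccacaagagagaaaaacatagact
CATTCC occurred on either strand once in the window of Nppb, at 2 places in that of Ankrd1 and in none of that of Nppa. It occurred in 14.7% of all 32851 such windows. Of the 30 genes of the fetal list 26 had a window, and 13 of these genes held it in any window of theirs. Genes and windows are unlike units, and enrichment was not tested. TATAAA occurred in 13.6% of all windows and in 9 of those 26 genes.

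Nppa (ENSMUSG00000041616.9, chr4:148000722-148002079) stood at 84.7, 96.4 and 84.2 CPM in WT sham and at 2579, 2793 and 2415 in WT TAC. In T497A it stood at 124, 103 and 241 after sham and 382, 478 and 206 after TAC. The WT TAC libraries lay far above all others, and T497A sham 3 overlapped T497A TAC. The interaction was -3.69 ± 0.52 (adjusted p = 0.00099), and the difference between genotypes after TAC was -2.87 in the fit without T497A sham. Nppb (ENSMUSG00000029019.8, chr4:147985788-147987205) stood at 162, 90.4 and 124 CPM in WT sham, 504, 599 and 471 in WT TAC, 33.4, 45.7 and 28.9 in T497A sham, and 305, 396 and 425 in T497A TAC. The T497A sham libraries were the lowest, and T497A TAC lay just below WT TAC. Its interaction was 1.31 ± 0.34 (adjusted p = 0.017), with a difference between genotypes of -1.80 after sham and -0.48 after TAC. From the 9 libraries low in H2-Ea it was 1.41 and no longer called (adjusted p = 0.17). Ankrd1 stood at 1341 to 1736 CPM in WT sham, 5102 to 5151 in WT TAC, 757 to 936 in T497A sham and 4295 to 4519 in T497A TAC, with no overlap between any of the groups. Its interaction was 0.65 ± 0.14 (adjusted p = 0.0032), and 0.35 without scaling for composition.

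Of the 30 genes of the fetal list, 13 were negative and 7 positive, with a median of -0.66. The X-linked gene Fhl1, for a LIM-domain protein of the stretch-sensing sarcomere, rose from 124 to 128 CPM in WT sham to 334 to 506 in WT TAC. In T497A it stood at 162 to 202 after sham and 122 to 146 after TAC (-2.08 ± 0.19, adjusted p = 1.9e-05). Gdf15, a stress-induced hormone, rose in both genotypes, from levels of 0.811 to 0.917 CPM to levels of 6.87 to 8.73 in WT and from levels of 0.980 to 1.26 to levels of 2.37 to 3.08 in T497A (-1.91 ± 0.24). Ccn2, a matricellular growth factor, stood at 55.4 to 67.2 CPM in WT sham, 306 to 603 in WT TAC, 79.6 to 171 in T497A sham and 151 to 174 in T497A TAC (-2.42 ± 0.43, adjusted p = 0.0034). Tgfb2 (-1.09 ± 0.17) and Uchl1, a ubiquitin hydrolase (-1.88 ± 0.28), were also negative. Calls among the sarcomeric members depended on the setting. Myh7, the fetal myosin heavy chain of the mouse ventricle, stood at 208 to 226 CPM in WT sham, 2133 to 2334 in WT TAC, 181 to 755 in T497A sham and 724 to 1518 in T497A TAC, and its interaction of -1.90 ± 0.67 was not called (adjusted p = 0.065). Without T497A sham 3 it was -2.25 and called (adjusted p = 0.017), and it was also called by DESeq2 (-1.90, adjusted p = 0.019), without robust estimation (-1.90, adjusted p = 0.019), with a stricter filter (-1.93, adjusted p = 0.046) and without scaling for composition (-2.21, adjusted p = 0.034). Skeletal actin Acta1 rose in both genotypes and had an interaction of -0.42 ± 0.45 (adjusted p = 0.53), which became -0.77 (adjusted p = 0.0012) without T497A sham 1, where it stood at 115 CPM against 277 and 352, and -0.83 (adjusted p = 0.012) with the 9 libraries low in H2-Ea. In contrast, Myh6, the adult myosin heavy chain, fell from levels of 27986 to 32861 CPM to levels of 12214 to 15122 in WT and from levels of 31228 to 33322 to levels of 24100 to 25984 in T497A (0.75 ± 0.14, adjusted p = 0.0014).

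**Figure D2:**
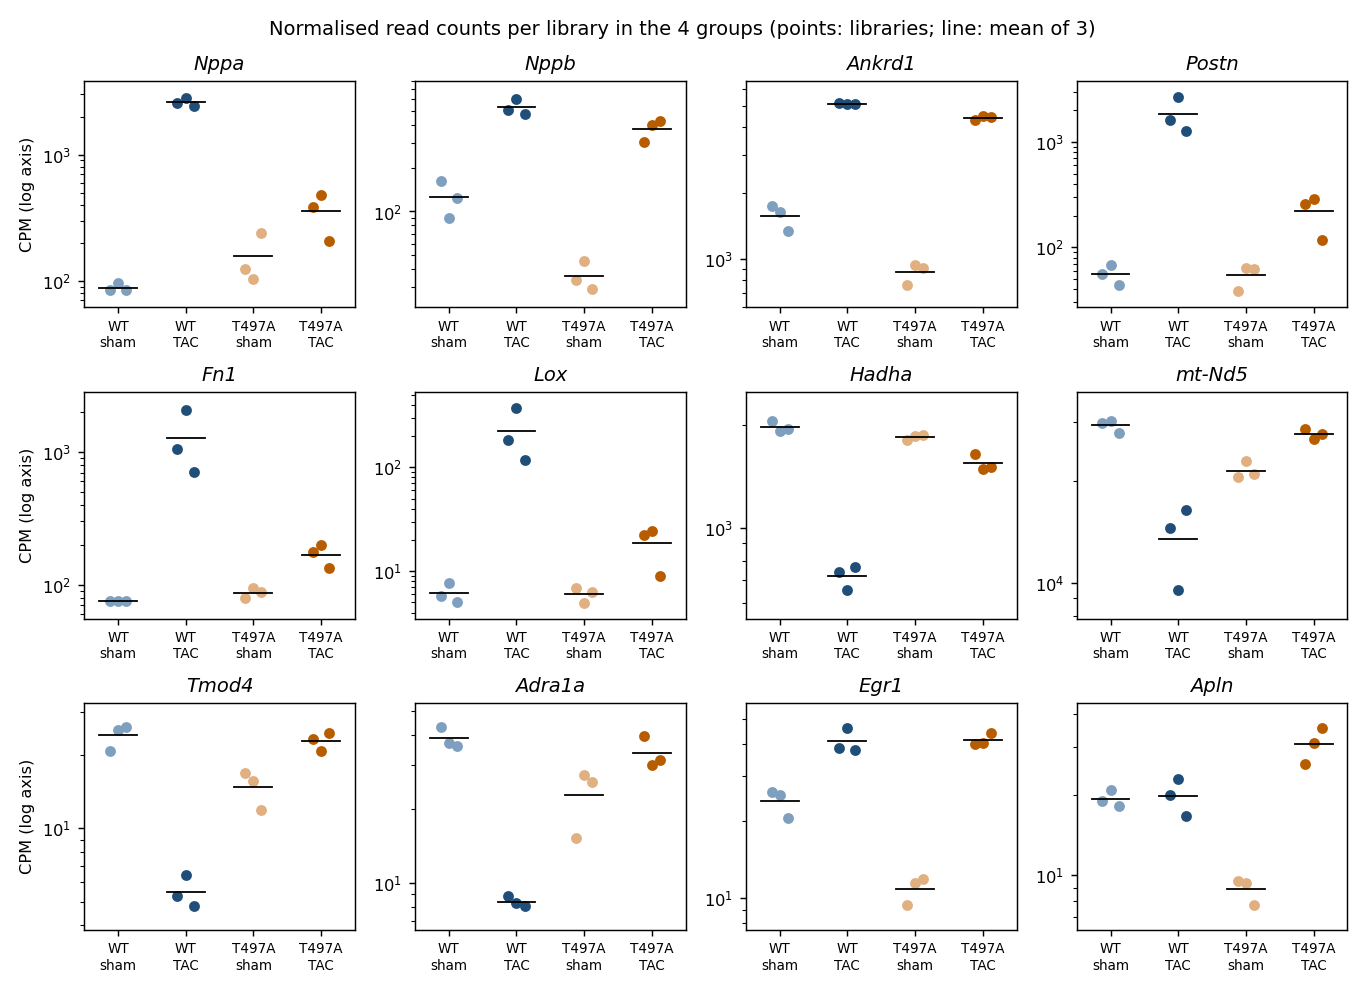
CPM of 12 genes in each library (points) and the mean of each group of 3 (line), on log axes that differ between panels. Nppa, Postn, Fn1 and Lox are highest in WT TAC, Hadha, mt-Nd5, Tmod4 and Adra1a are lowest in WT TAC, and Nppb, Ankrd1, Egr1 and Apln are lowest in T497A sham.

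Extracellular matrix genes mostly rose after TAC in WT, and fewer of them rose in T497A, by less. All but 1 of 39 collagens, fibrous matrix proteins and collagen-processing enzymes were negative and 0 positive, with a median of -1.42. In the fit without T497A sham, 37 of the 39 were lower in T497A after TAC, where 18.8% of all genes were lower and 18.3% higher. After TAC 37 of them rose in WT, where 25.9% of all genes rose, and 24 rose in T497A, where 12.9% did. In T497A 2 fell, where 11.4% of all genes did, and in WT 0 fell. Col1a1, a chain of type I collagen (ENSMUSG00000001506.10, chr11:94936224-94953042), stood at 143 to 166 CPM in WT sham, 1626 to 4170 in WT TAC, 98.5 to 152 in T497A sham and 244 to 449 in T497A TAC. Its interaction was -2.58 ± 0.51 (adjusted p = 0.0055), with the T497A TAC libraries between the sham groups and WT TAC. Col3a1, of type III collagen, was at -1.62 ± 0.43 (adjusted p = 0.021), and its call was lost without WT sham 3 (-1.51, adjusted p = 0.050) or WT TAC 2 (-1.31, adjusted p = 0.053). Col6a3 (-1.30 ± 0.16) and Col6a2 (-1.17 ± 0.17), of type VI collagen, and the elastic-fibre protein Mfap5 (-2.44 ± 0.30) had smaller standard errors. Lox, which cross-links collagen, stood at 5.02 to 7.72 CPM in WT sham, 118 to 371 in WT TAC, 4.98 to 6.86 in T497A sham and 8.91 to 24.2 in T497A TAC (-3.57 ± 0.72, adjusted p = 0.0066).

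Matricellular proteins, which signal to cells from the matrix, followed the same direction, with 20 of 29 negative and 1 positive (median -1.85). Postn, made by activated fibroblasts, stood at 43.8 to 68.7 CPM in WT sham, 1283 to 2676 in WT TAC, 38.2 to 63.1 in T497A sham and 117 to 290 in T497A TAC (-3.04 ± 0.58, adjusted p = 0.0049). Sparc, which binds collagen, was at -1.69 ± 0.21 and Thbs3, a thrombospondin, at -1.60 ± 0.18. Of 18 markers of activated fibroblasts 13 were negative and 0 positive (median -2.30). Fibronectin, Fn1, stood at 75.3 to 76.0 CPM in WT sham, 708 to 2083 in WT TAC, 79.6 to 93.7 in T497A sham and 133 to 198 in T497A TAC (-3.13 ± 0.49, adjusted p = 0.0017). Of 18 markers of resting fibroblasts 12 were negative and 4 positive (median -0.60), with Pi16 at -1.55 ± 0.22 and Dpep1 at 0.69 ± 0.09. The ligands, binding proteins and receptors of TGF-beta and activin were negative in 15 of 23 and positive in 1 (median -0.84), among them Bmp1, which cleaves procollagen (-1.24 ± 0.18), and the activin antagonist Fstl3 (-1.93 ± 0.26). Matrix proteases and their inhibitors were negative in 16 of 29 and positive in 3 (median -1.05), with the inhibitors Timp2 at -1.10 ± 0.11 and Timp3 at -0.77 ± 0.10.

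Within WT TAC, library 2 was the highest for Col1a1, Postn, Fn1 and Lox. With the 9 libraries low in H2-Ea, which leave out WT TAC 1 and 2, negative calls numbered 25 of 39 among collagens and fibrous matrix (median -1.32), 13 of 29 among matricellular proteins (-1.54) and 6 of 18 among activated fibroblast markers (-1.80). In that fit the values of Col3a1 (-1.35, adjusted p = 0.10), Col12a1 (-2.84, adjusted p = 0.085), Col8a2 (-2.86, adjusted p = 0.099), Lox (-2.55, adjusted p = 0.080) and Ltbp2, a binding protein of latent TGF-beta (-3.08, adjusted p = 0.083, from -3.57), were no longer called. The fibroblast marker sum moved with these lists, but it includes Col1a1, a collagen that made up most of it in WT TAC. It is therefore no separate measure of fibroblast content, whose part in the result was not tested.

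Macrophage markers were negative in 14 of 25 and positive in 0 (median -0.91). Lgals3, a lectin of activated macrophages, stood at 2.46 to 3.41 CPM in WT sham, 19.3 to 26.4 in WT TAC, 3.41 to 5.21 in T497A sham and 4.94 to 6.31 in T497A TAC (-2.59 ± 0.25, adjusted p = 1.1e-05). Cd68 was at -1.13 ± 0.19, the mannose receptor Mrc1 at -0.71 ± 0.13 and the efferocytosis receptor Mertk at -1.06 ± 0.17. Negative calls fell to 9 without WT sham 1 and to 7 with the 9 libraries low in H2-Ea (median -0.70). Lysosomal and autophagy genes were negative in 16 of 35 and positive in 3 (median -0.29), with the cathepsins Ctsd (-0.69 ± 0.09), Ctsz (-1.23 ± 0.16), Ctsa (-0.60 ± 0.08) and Ctsb (-0.78 ± 0.12) all negative. The positive count of that list was 1 to 6 when libraries were left out in turn, with 6 without WT TAC 3, 5 without WT TAC 2 and 1 without WT TAC 1, WT sham 2 or T497A sham 2. Of 39 interferon-stimulated genes 0 were positive and 2 negative, and 5 were positive without T497A sham 1 and 4 negative without T497A sham 2. Both calls, Ifi35 (-0.75) and Ifi27l2a (-0.96), were lost without WT sham 1 (-0.68 and -0.87, adjusted p = 0.059 and 0.069) and without T497A TAC 1 (-0.63 and -0.83, adjusted p = 0.050 and 0.061). Ifi35 was also lost without WT sham 2 (-0.71, adjusted p = 0.055) and Ifi27l2a without WT sham 3 (-0.90, adjusted p = 0.066) or WT TAC 2 (-0.91, adjusted p = 0.074).

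Genes of mitochondrial fuel use were mostly positive in the interaction. Of 41 genes of fatty acid uptake and oxidation 33 were positive and 0 negative (median 1.01), and 39 were higher in T497A after TAC in the fit without T497A sham. After TAC 40 of them fell in WT, where 24.04% of all genes fell, and 20 fell in T497A, where 11.4% did. Hadha, a subunit of the trifunctional protein of beta-oxidation (ENSMUSG00000025745.12, chr5:30118304-30155162), stood at 2055, 1917 and 1946 CPM in WT sham and at 739, 657 and 765 in WT TAC. In T497A it stood at 1810, 1852 and 1867 after sham and 1641, 1489 and 1511 after TAC. WT TAC lay well below the other groups, which did not overlap each other either (1.20 ± 0.10, adjusted p = 2.6e-06). The thiolase Acaa2 fell from levels of 1019 to 1074 CPM to levels of 212 to 281 in WT, while T497A stood at 838 to 945 after sham and 732 to 830 after TAC (1.82 ± 0.13, adjusted p = 7.6e-07). The isomerase Eci1 (1.24 ± 0.09), the carnitine carrier Slc25a20 (1.14 ± 0.09) and the carnitine transferase Cpt1b (1.00 ± 0.17) followed. The uncoupling protein Ucp3 stood at 74.9 to 104 CPM in WT sham, 8.25 to 16.8 in WT TAC, 59.7 to 119 in T497A sham and 57.9 to 123 in T497A TAC (2.76 ± 0.54, adjusted p = 0.0053). The coactivator Ppargc1a fell in both genotypes (-1.16 in WT and -1.17 in T497A), and its interaction was -0.01 ± 0.20 (adjusted p = 0.98).

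Of 75 nuclear genes of the respiratory chain 64 were positive and 1 negative (median 0.53). Sdha of complex II fell from levels of 2002 to 2071 CPM to levels of 789 to 1003 in WT, while T497A stood at 1974 to 2005 after sham and 1652 to 1765 after TAC (0.92 ± 0.11, adjusted p = 6.4e-05). Complex I subunits Ndufa12 (0.89 ± 0.11) and Ndufs1 (0.84 ± 0.11) and complex III subunit Uqcrc1 (0.88 ± 0.12) were alike in size. The count depended on scaling, with 32 positive and 2 negative without scaling for composition. Of 13 transcripts of the mitochondrial genome 10 were positive and 0 negative (median 1.31). mt-Nd5, a complex I subunit, stood at 27770 to 30238 CPM in WT sham, 9536 to 16443 in WT TAC, 20647 to 22922 in T497A sham and 26795 to 28514 in T497A TAC (1.48 ± 0.21, adjusted p = 0.00018). T497A sham lay between the other sham group and WT TAC. Enzymes of the citrate cycle and of branched-chain amino acid breakdown were positive in 44 of 47 (median 0.71). The dehydrogenase subunit Bckdha fell from levels of 105 to 115 CPM to levels of 33.0 to 44.7 in WT, while T497A stood at 93.4 to 101 after sham and 82.3 to 95.4 after TAC (1.39 ± 0.13, adjusted p = 5.6e-06). Ivd (1.30 ± 0.12), of leucine breakdown, Mccc2 (1.14 ± 0.12) and Bckdhb (1.07 ± 0.10) followed. The 1 negative member was Bdh1 (-1.52), which interconverts ketone bodies. With the 9 libraries low in H2-Ea the positive calls numbered 33 of 41 for fatty acid oxidation, 51 of 75 for the nuclear respiratory chain, 8 of 13 for the mitochondrial genome and 41 of 47 for the citrate cycle list, with medians of 0.86, 0.34, 0.88 and 0.58. The cardiomyocyte marker sums moved with these lists, as given above. They include Myh6, which made up most of the sum in WT sham and itself fell after TAC. They are therefore no separate measure of cardiomyocyte content, whose part was not tested.

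In 4 pairs of related genes, chosen after their values were seen and not counted against other such pairs, the form of adult heart or muscle was positive and the other negative. The muscle phosphofructokinase Pfkm fell from levels of 1441 to 1494 CPM to levels of 644 to 766 in WT, while T497A stood at 1484 to 1563 after sham and 1197 to 1291 after TAC (0.76 ± 0.10, adjusted p = 1.0e-04). The platelet form Pfkp rose from levels of 55.4 to 64.2 CPM to levels of 120 to 132 in WT, while T497A stood at 55.9 to 65.6 after sham and 57.4 to 69.2 after TAC (-0.99 ± 0.12, adjusted p = 4.2e-05). Lactate dehydrogenase Ldhb, the heart form, was at 0.91 and Ldha at -0.30. Cytochrome oxidase subunit Cox6a2, of heart and skeletal muscle, was at 0.79 and Cox6a1, the 1 negative member of the nuclear respiratory chain list, at -0.32, a negative call that 8 of the 12 fits without 1 library did not give. The muscle ribosomal protein Rpl3l fell from levels of 251.4 to 259.1 CPM to levels of 53.5 to 68.6 in WT, while T497A stood at 307 to 333 after sham and 163 to 178 after TAC (1.18 ± 0.11, adjusted p = 6.5e-06). Its paralogue Rpl3 stood at 69.4 to 77.7 CPM in WT sham, 126 to 133 in WT TAC, 71.6 to 73.5 in T497A sham and 77.0 to 86.8 in T497A TAC (-0.65 ± 0.09, adjusted p = 0.00012). The difference between the members of a pair was not tested. The glycolysis and hypoxia list as a whole held 9 positive and 11 negative of 34 (median 0.06, and -0.24 without scaling for composition).

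Genes of the adult sarcomere were positive in 22 of 31 and negative in 1 (median 0.64). After TAC 25 of the 31 fell in WT and 2 rose, whereas 7 fell and 8 rose in T497A. Over all genes 24.04% fell and 25.9% rose in WT, and 11.4% fell and 12.9% rose in T497A. Tmod4, which caps actin filaments, stood at 20.9, 25.4 and 26.2 CPM in WT sham, 5.27, 6.44 and 4.79 in WT TAC, 16.9, 15.7 and 11.9 in T497A sham and 23.4, 20.8 and 24.7 in T497A TAC. It fell in WT and rose in T497A (2.76 ± 0.20, adjusted p = 1.1e-06). The actin nucleators Lmod2 (0.99 ± 0.09) and Lmod3 (1.06 ± 0.11) and the M-band protein Myom1 (0.92 ± 0.10) had the same form. The 1 negative member was the intermediate filament gene Des (-0.51). In the stretch-sensing cytoskeleton 17 of 40 were negative and 4 positive (median -0.40), with Pdlim5 (-0.69 ± 0.10), Enah (-0.75 ± 0.12) and vimentin, Vim (-0.96 ± 0.14), among the negative. Junction and adhesion genes held 18 negative and 10 positive of 37. The desmosomal plaque protein Dsp (0.85 ± 0.10) was positive and the basement membrane protein Nid1 (-0.80 ± 0.12) negative.

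Calcium cycling genes were positive in 12 of 28 and negative in 4, with a median of 0.24 that became -0.05 without scaling for composition, where 7 were positive and 8 negative. Atp2a2, which pumps calcium back into the sarcoplasmic reticulum, stood at 20009 to 20948 CPM in WT sham, 7735 to 10088 in WT TAC, 20476 to 23013 in T497A sham and 14142 to 14666 in T497A TAC (0.58 ± 0.14, adjusted p = 0.0064, and 0.29 without that scaling). Its inhibitor Pln stood at 1464 to 1662, 618 to 909, 1552 to 1679 and 1278 to 1407 CPM in the same order (0.72 ± 0.16, adjusted p = 0.0037). The calcium-binding protein Hrc (1.01 ± 0.14), the junction protein Jph1 (0.88 ± 0.12) and the kinase Camk2b (1.08 ± 0.16) were also positive. The release channel Ryr2 was at 0.31 ± 0.10 (adjusted p = 0.037), a call lost in 9 of the 12 fits without 1 library and at 0.02 without scaling for composition. With the 9 libraries low in H2-Ea it was 0.17 (adjusted p = 0.13). Potassium and sodium channel genes were positive in 11 of 25 and negative in 2 (median 0.66). The inward rectifier Kcnj12 stood at 32.7 to 36.8 CPM in WT sham, 13.2 to 14.7 in WT TAC, 24.4 to 28.02 in T497A sham and 20.8 to 22.3 in T497A TAC (1.03 ± 0.11). Kcnj3 (0.79 ± 0.09) and Kcnj5 (0.74 ± 0.09), which form the acetylcholine-gated channel, were positive.

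Of 30 genes of adrenergic and Gq signalling, 7 were positive (23.3%) and 8 negative (26.7%), where 15.3% and 14.2% of all genes were. Their median was 0.13, and -0.17 without scaling for composition. Adra1a, an alpha-1 receptor for noradrenaline that couples to Gq (ENSMUSG00000045875.13, chr14:66635251-66771168), stood at 42.9, 37.0 and 36.1 CPM in WT sham and 8.81, 8.29 and 8.05 in WT TAC. In T497A it stood at 15.2, 27.4 and 25.8 after sham and 39.5, 29.99 and 31.5 after TAC. WT TAC was lowest and 1 of the 3 T497A TAC libraries lay within the range of WT sham (2.77 ± 0.27, adjusted p = 5.3e-05). The angiotensin receptor Agtr1a fell in WT from levels of 40.7 to 44.4 CPM to levels of 22.6 to 25.6 and rose in T497A from levels of 27.1 to 41.7 to levels of 48.2 to 57.2 (1.48 ± 0.18, adjusted p = 9.6e-05). Grk5, a kinase that desensitises these receptors (ENSMUSG00000003228.9, chr19:60889749-61095968), rose from levels of 42.5 to 48.6 CPM to levels of 93.5 to 95.4 in WT and fell from levels of 67.6 to 72.6 to levels of 43.6 to 50.0 in T497A (-1.65 ± 0.09, adjusted p = 8.4e-08). The endothelin receptor Ednra rose in WT and fell in T497A (-1.56 ± 0.18, adjusted p = 7.5e-05). The negative count of this list was 3 without T497A TAC 2, and 4 without T497A TAC 3, T497A sham 3, WT TAC 1, WT sham 1 or WT sham 2. Grk5 and Ednra were called in every fit. Grk5 was higher in all libraries of WT TAC and T497A sham than in the other groups, as in the split above, which every fit keeps.

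Of 12 protein kinase C isoforms 2 were positive (16.7%) and 1 negative (8.33%), near the 15.3% and 14.2% of all genes. Their median was 0.03, and -0.27 without scaling for composition. Prkce, the epsilon isoform, stood at 60.5 to 64.9 CPM in WT sham, 33.1 to 36.8 in WT TAC, 51.0 to 67.6 in T497A sham and 52.8 to 57.9 in T497A TAC (0.80 ± 0.13, adjusted p = 0.00042). Prkd3 (-0.31) was no longer called without WT sham 1, T497A sham 3, WT TAC 2, T497A TAC 2 or T497A TAC 3 (-0.29 to -0.24, adjusted p from 0.052 to 0.068). A list of 25 genes held those that prime the kinase by phosphorylation, remove those phosphates or act in the protein phosphatase 1 pathway. Of these 6 were positive (24%) and 2 negative (8%), with a median of 0.03, and -0.27 without scaling for composition. The negative count was 1 in 8 of the 12 fits without 1 library. Mtor, the kinase of the complex that phosphorylates the tail, was at 0.60 ± 0.08 (adjusted p = 0.00014). The phosphatase Phlpp1 was at 0.39 ± 0.10, which was 0.09 and not called without scaling for composition.

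In some of the positive genes the T497A sham libraries stood lowest. Egr1, an immediate early transcription factor, stood at 20.5 to 25.9 CPM in WT sham, 38.0 to 46.4 in WT TAC, 9.37 to 11.8 in T497A sham and 40.1 to 44.3 in T497A TAC. The TAC groups overlapped and T497A sham was lowest (1.15 ± 0.16, adjusted p = 0.00013), with a difference between genotypes of -1.13 after sham and 0.02 after TAC. Apln, an X-linked gene for the vascular peptide apelin, stood at 18.2 to 20.7, 16.6 to 22.9, 7.76 to 9.50 and 26.1 to 35.4 CPM in the same order (1.76 ± 0.18, adjusted p = 1.8e-05). It changed little in WT (0.04) and rose in T497A (1.80). The endothelial adhesion molecule Sele (1.64 ± 0.27), the complement component C7 (2.46 ± 0.34) and the receptor Kit (1.38 ± 0.20) were also lowest in T497A sham. The growth arrest gene Btg2 (1.56 ± 0.21) and the AP-1 member Jun (0.76 ± 0.11) were highest in T497A TAC. Of 31 immediate early genes 7 were positive (22.6%) and 6 negative (19.4%), where 15.3% and 14.2% of all genes were. Their median was 0.24, and -0.05 without scaling for composition. Leaving out libraries in turn changed these counts to 4 positive without T497A TAC 3, T497A sham 1, WT TAC 1 or WT sham 3, and to 2 or 3 negative without T497A TAC 1 or 2, T497A sham 1 or 3, WT TAC 2 or WT sham 2.

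Genes of mitosis and DNA replication answered surgery in both genotypes and gave few calls in the interaction. After TAC 51 of 57 rose in WT (median 2.15), where 25.9% of all genes rose, and 49 in T497A (median 1.77), where 12.9% did. In the interaction 1 was positive and 3 negative (median -0.17). The difference between genotypes after TAC was nonetheless called as lower in 35 of the 57 (18.8% of all genes) and higher in 2 (18.3% of all genes) in the fit without T497A sham (median -0.64), and the median difference after sham was -0.31. The 1 positive member was cyclin D1, Ccnd1, at 61.9 to 65.6 CPM in WT sham, 60.2 to 75.2 in WT TAC, 19.02 to 41.2 in T497A sham and 84.0 to 107 in T497A TAC (1.75 ± 0.38, adjusted p = 0.0077). With the 9 libraries low in H2-Ea Ccnd1 was at 1.40 (adjusted p = 0.15), the 3 negative members were not called either, and the median was 0.22. The negative count was 1 without T497A TAC 1, WT TAC 2 or WT sham 2 and 5 without WT TAC 3.

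Clock genes were positive in 10 of 20 and negative in 0 (median 0.42), which became 4 positive and 1 negative without scaling for composition and 6 positive with the 9 libraries low in H2-Ea. Hlf, a PAR-domain factor of clock output, stood at 62.9 to 75.2 CPM in WT sham, 21.3 to 25.9 in WT TAC, 45.8 to 55.2 in T497A sham and 53.1 to 55.7 in T497A TAC (1.60 ± 0.13, adjusted p = 1.4e-06). Genes of endoplasmic reticulum stress were negative in 11 of 30 and positive in 0 (median -0.33). Over all genes tested 14.2% were negative and 15.3% positive, for comparison with this list and those that follow. Pdia3 (-0.95 ± 0.15) and P4hb (-0.65 ± 0.11), which form disulfide bonds, rose in WT, and Calr (-0.55 ± 0.09) and Hsp90b1 (-0.55 ± 0.11) fell in T497A with no call in WT. ATF4 targets held 8 negative and 2 positive of 28 (median -0.40), and 1 positive without T497A TAC 2 or 3, T497A sham 2 or 3, WT TAC 1, or WT sham 1 or 3. Among them Mthfd2, of mitochondrial folate metabolism, was at -1.18 ± 0.25. Cardiac transcription factors held 11 positive and 5 negative of 36 (median 0.12, and -0.18 without scaling for composition), and 3 negative without T497A TAC 2, T497A sham 2 or 3, or WT sham 2 or 3, with Sox9 rising from levels of 2.20 to 2.73 CPM to levels of 17.5 to 29.9 in WT and from levels of 2.58 to 3.66 to levels of 5.47 to 7.11 in T497A (-2.14 ± 0.29). Antioxidant genes held 12 positive and 10 negative of 34. The mitochondrial peroxiredoxin Prdx5 (0.74 ± 0.09) and Gstm1 (0.91 ± 0.11) were positive and Gpx1 (-0.68 ± 0.09) negative. Cytosolic ribosomal proteins held 18 negative and 4 positive of 58 (median -0.14), 11 negative without T497A TAC 2 or WT sham 2, and 49 negative without scaling for composition.

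Without scaling for composition, calls over all 17699 genes tested were 1175 positive and 5694 negative, with a median of -0.31. Counts in the following lists shifted to the negative side as well, and this shift is not particular to them. Genes of endoplasmic reticulum stress then held 24 negative (median -0.64), ATF4 targets 1 positive and 22 negative (-0.70), and cardiac transcription factors 2 and 12 (-0.18, from 0.12). Antioxidant genes held 7 and 17 (-0.24, from 0.05), adhesion genes 4 and 25, and ribosomal proteins 2 and 49. The stretch-sensing cytoskeleton held 1 positive and 26 negative, the lysosomal list 0 and 25, the glycolysis list 5 and 15, the fetal list 3 and 15, mitosis genes 1 and 11, interferon-stimulated genes 0 and 6, genes that prime the kinase 2 and 9, its isoforms 1 and 4, and immediate early genes 4 and 6.

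The 9 libraries low in H2-Ea gave fewer calls over all genes, as given above, and fewer in several of these lists. Whether these lists lost a larger share of their calls than all genes did was not tested. There the medians were -0.34 for ATF4 targets, -0.12 for ribosomal proteins and 0.10 for adrenergic and Gq genes. With all 12 libraries they were -0.40, -0.14 and 0.13. Immediate early genes held 5 positive and 0 negative, genes that prime the kinase 3 and 0, its isoforms 1 and 0, and cardiac transcription factors 8 and 3. The glycolysis list held 5 positive and 9 negative. Interferon-stimulated genes held 3 positive and 1 negative, with a median of 0.35 in place of -0.41.

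**Figure D3:**
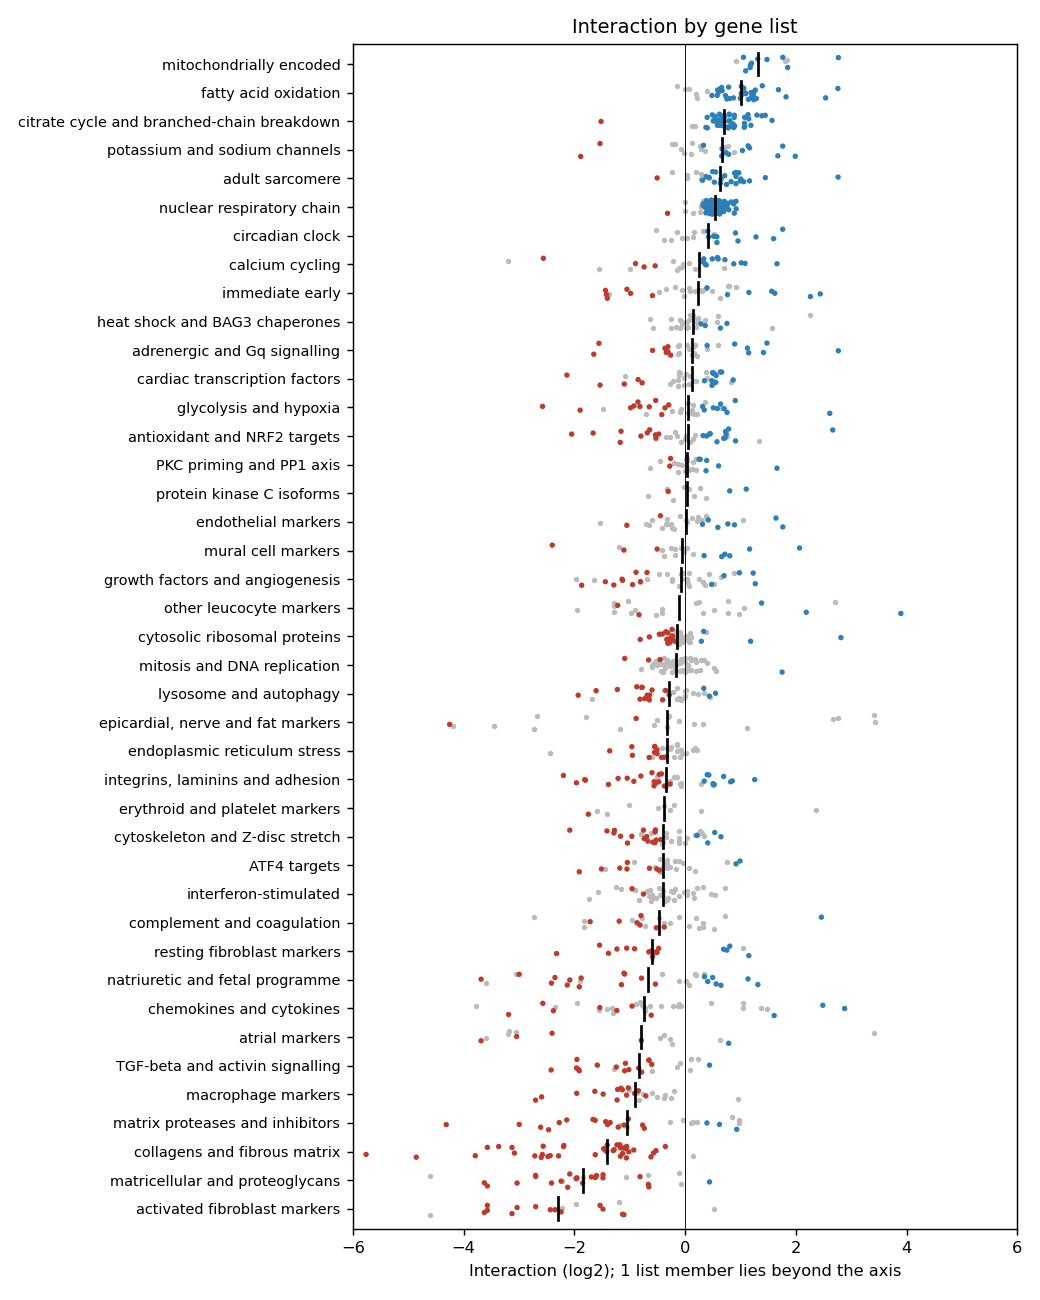
Interaction (log2, horizontal axis) of each member of 41 gene lists (rows), with blue points for called positive, red for called negative and grey for not called, and a bar at the median. Hba-a2 lies beyond the axis. Lists run from mitochondrially encoded genes (median 1.31) at the top to markers of activated fibroblasts (-2.30) at the bottom.

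Several of the largest single interactions were crossings, in which a gene moved one way in WT and the other way in T497A. Gpr179, an orphan receptor known from the retina (chr11:97332109-97352077), stood at 0.0734 to 0.205 CPM in WT sham, 2.44 to 5.72 in WT TAC, 8.43 to 13.6 in T497A sham and 0.0455 to 0.462 in T497A TAC (-10.63 ± 0.87, adjusted p = 2.0e-05). The enolase copy Eno1b stood at 0.183 to 0.375, 5.59 to 6.71, 4.41 to 8.75 and 0.258 to 0.769 CPM in that order (-8.31 ± 0.57), and its counts are uncertain because it is close in sequence to another gene. Igsf23, of the immunoglobulin superfamily, crossed likewise, with 0.862 to 1.25, 7.25 to 8.29, 3.18 to 10.4 and 0.546 to 1.23 CPM (-5.60 ± 0.61, adjusted p = 8.4e-05). Adgrf3 had the most negative value of the called genes (-15.97, adjusted p = 0.026), but it gave 51.4 CPM in T497A sham 1 against 0.564 and 0.383 in the other 2, and 6.90, 23.6 and 0.0252 CPM in WT TAC 1, 2 and 3. Its call was lost in 8 of the 12 fits without 1 library, with -10.78 (adjusted p = 0.050) without T497A sham 1, and with the 9 libraries low in H2-Ea, the value was -2.20 (adjusted p = 0.57). In the positive direction Rab6b, a small GTPase of vesicle traffic, stood at 13.1 to 20.3 CPM in WT sham, 2.54 to 3.00 in WT TAC, 1.53 to 9.24 in T497A sham and 17.0 to 21.9 in T497A TAC (4.76 ± 0.80, adjusted p = 0.0025). Drc3, of the dynein regulatory complex of cilia (chr11:60353329-60394341), stood at 4.42 to 5.02, 0.693 to 1.76, 0.472 to 0.719 and 3.33 to 4.08 CPM (4.70 ± 0.41, adjusted p = 3.5e-06).

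Rpl26, a ribosomal protein gene on chromosome 11, stood at 110.1 to 112.9 CPM in WT sham, 30.6 to 72.5 in WT TAC, 31.6 to 35.5 in T497A sham and 98.9 to 107 in T497A TAC (2.81 ± 0.35, adjusted p = 0.00046). The processed pseudogene Gm15772 had the reverse pattern, and the 2 together summed to 110.4 to 113, 89.1 to 104, 97.4 to 102 and 104 to 107 CPM in that order. The crossing of Rpl26 was thus largely matched by the pseudogene, and how reads that fit both were counted is not given in the sources used here. The haemoglobin gene Hba-a2, with an interaction of 8.36, gave 0 to 0.0666 CPM in T497A sham, 0.0787 in WT TAC 2 and 4.33 to 7.77 in the other 8 libraries. Its near-identical neighbour Hba-a1 was at -1.75.

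Among genes whose sham groups were close, some of the largest positive values fell on metabolic and channel genes that were lowest in WT TAC. Acsm5, a mitochondrial acyl-CoA synthetase, stood at 6.28 to 9.74 CPM in WT sham, 0.615 to 0.814 in WT TAC, 4.66 to 6.70 in T497A sham and 3.41 to 7.32 in T497A TAC (3.25 ± 0.37, adjusted p = 4.9e-05). Ces1d, a carboxylesterase that acts on stored lipid, stood at 123 to 130, 6.13 to 10.6, 153 to 155 and 61.1 to 79.7 CPM (2.67 ± 0.23, adjusted p = 2.3e-05). The chloride channel Clcn1 stood at 8.34 to 8.54, 1.01 to 1.46, 5.76 to 7.59 and 5.92 to 6.70 CPM (2.61 ± 0.21, adjusted p = 1.5e-06). Among the largest negative values with close sham groups were those of collagens. Col11a1 was at -4.86 ± 1.21 (adjusted p = 0.017), which ranged from 22.98 to 130 CPM in WT TAC and was -4.54 and not called without T497A sham 2 (adjusted p = 0.054), and -3.44 with the 9 libraries low in H2-Ea (adjusted p = 0.11). Col9a2 stood at 0.237 to 0.624, 16.7 to 19.9, 0.333 to 0.425 and 1.34 to 2.23 CPM (-3.29 ± 0.40, adjusted p = 5.3e-05).

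By position, 660 of 17093 autosomal genes tested (3.86%) were called with an interaction of at least 4-fold. On chromosome 11, which holds Prkca, 93 of 1410 were (6.60%), 59 negative and 34 positive. The stretch from 100000001 to 110000000, which holds Prkca, had 6 of 179 such genes. The stretches of equal length before and after it had 15 of 143 and 15 of 144. Whether such genes gather near Prkca was not tested. The other autosomes held 567 of 15683 (3.62%) and ranged from 2.05 to 5.15%. Of the 104 autosomal genes that were called and at least 4-fold apart between the sham groups, where 5.79% of all genes were called at any size (2.99% higher and 2.80% lower in T497A), 33 lay on chromosome 11 and 83 were higher in T497A sham. Of these 104, 98 were called in the interaction, all with the sign opposite to the sham difference, which the shared T497A sham and WT sham libraries favour. After TAC, in other libraries, 95 of the 104 had an estimate between genotypes opposite to that after sham. They made up 97 of the 660 autosomal genes with an interaction of at least 4-fold.

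**Figure D4:**
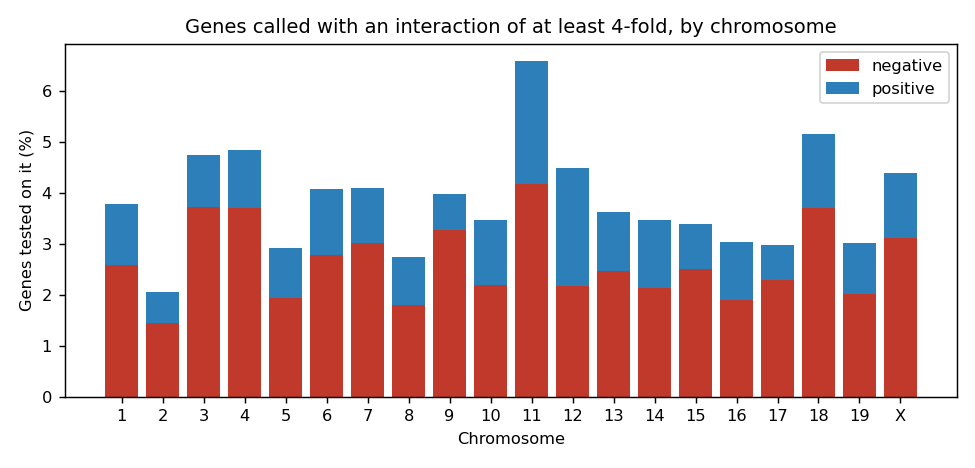
Share of the genes tested on each chromosome (vertical axis, %) that were called with an interaction of at least 4-fold, stacked as negative (red) and positive (blue). Chromosome 11 holds the largest share among those drawn, 6.60%, and chromosome 2 the smallest, 2.05%.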

How the data were processed

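Poly(A) RNA from mouse left ventricle was sequenced as single-end reads, per the labels' protocols. The authors deposited 1 table of raw counts per gene for 55401 gene identifiers and 12 libraries, with no normalization. Trim Galore 0.6.4, STAR 2.7.3a, featureCounts, Subread 1.6.3 and limma 3.50.3 are named per the submitters' processing notes. Both mm10 and GRCh38 appear there, with no role stated. Whether counting used strand, and what became of multi-mapping reads, is not given in the sources used here. Genes with near-identical copies are therefore uncertain. Positions come from GENCODE M21 on GRCm38, to which 55141 identifiers matched after the version suffix was dropped.

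Counts were analysed in R 4.3.3 with edgeR 4.0.16 (filterByExpr, TMM factors, robust glmQLFit and glmQLFTest), with 1 mean for each of 4 groups, and p-values were adjusted by Benjamini-Hochberg over the 17699 genes that passed the filter. Values are log2 fold changes ± standard error. Total counts of 58932759 to 72594085 per library mean that the spread between libraries, more than counting error, limits precision. In simulated data with 200 changed genes among 17699, the interaction test recovered 23.9% of 1.5-fold, 70.1% of 2-fold and 93.9% of 4-fold changes, and 6.02% of its calls were false. Far more genes were called in the data, which moves the cutoff on p, so these rates need not hold there.

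The members and gene lists were chosen with earlier results of these data known. Genes are named by rule: Prkca, a panel of 16 genes, the 10 largest called interactions in each direction among autosomal protein-coding genes of at least 1 CPM, the 8 largest with sham groups within 0.5 log2, up to 4 called members of each of 43 lists, and Xist and Ddx3y. Other named genes were chosen after their values were seen, namely those that crossed the design (such as Gm15772), H2-Ea, Ldha, Cox6a1, Cox6a2, Bdh1 and Des. Alternatives were other size factors, no composition scaling, 2 other filters, robust estimation off, a replicate block, 2 gene exclusions, limma 3.58.1 (voom), DESeq2 1.42.0, each library left out, and, chosen after seeing the data, the 3 libraries with at least 1 CPM of H2-Ea left out. Some of the genes that the rule names are not reported here.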

Additional observations from a re-analysis of the deposited data

Results flagged for a closer look

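The comparison is itself a test of whether 2 responses to the same surgery differ, so every called gene stands out by that test: 2700 genes with a positive and 2518 with a negative interaction. Among the 16 genes of the panel, those with a called difference between the T497A and the WT response (log2) were Nppa at -3.69, Postn at -3.04, Col1a1 at -2.58, Ccn2 at -2.42 and Col3a1 at -1.62 on the negative side. On the positive side they were Nppb at 1.31, Egr1 at 1.15, Cpt1b at 1.00, Myh6 at 0.75, Pln at 0.72, Ankrd1 at 0.65, Atp2a2 at 0.58 and Ryr2 at 0.31. Groups of 3 libraries were not screened for single outlying values.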

How the results depend on the processing

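The count of called genes was 5218. Without scaling for composition it held 1175 positive and 5694 negative genes, against 2700 and 2518, and the median of all genes moved from -0.01 to -0.31. With the 3 libraries that hold at least 1 CPM of H2-Ea left out it was 3276, with 1755 positive and 1521 negative, and fewer libraries enter that fit. Leaving out each library in turn gave 4394 to 5283 called genes, 2300 to 2742 positive and 2048 to 2541 negative. Signs reversed for Prkca (-0.031), Cdc37 (-0.027) and Hspe1 (-0.010) without scaling for composition. Ppargc1a, at -0.01, was 0.055 without those 3 libraries, -0.16 to 0.15 when single libraries were left out and -0.31 without scaling for composition. The cause was not tested. Of 202 named genes 198 were called, and 157 kept their call and sign in every setting.

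Replicate numbers are shared between groups, but same-numbered libraries did not deviate together: the correlation of their deviations ran from -0.11 to 0.07 over 18 pairs, 0 of them over 0.1, and 2 of 12 libraries were on average closest to their own number. With the replicate block 4921 genes were called, 2544 positive and 2377 negative, of which 4808 were among the 5218.

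The T497A sham group differs from the others in sex-linked transcripts, and WT TAC and T497A sham share the crossing genes, so neither can be told apart from the interaction. With 3 libraries a group, 1.5-fold changes were often missed in a simulation of 200 changed genes, far fewer than were called in the data.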
